A study of Homo sapiens with 3 samples.

Results

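The data described here are gene expression values of Cal62 cells, a human thyroid cancer cell line, transfected with the siRNA siADAR1 #2 or with siControl, a negative control siRNA. They were chosen by transfection: 4 of the 6 libraries of the series, 2 for each of these transfections. The other 2 libraries come from cells that received siADAR1 #1, a second siRNA against ADAR1, and were used to mark the changes that siADAR1 #2 did not share with it. All cells were grown in medium with fetal bovine serum and transfected with Lipofectamine RNAimax, and reads of 75 bp from both ends were obtained from libraries of poly(A)+ RNA. The labels name 1 sample for each transfection, and the 2 columns of values of each were taken as the 2 independent biological replicates that the methods of the study give. The series has 1 control siRNA and 1 cell line, so an effect of losing ADAR1 and an effect of the siRNA molecule itself cannot be told apart from siADAR1 #2 alone.

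ADAR, the gene of ADAR1, encodes an adenosine deaminase that converts adenosine to inosine in double-stranded RNA. Its long, interferon-induced isoform and its short, constitutive isoform edit many transcripts, mostly in repeated sequences, and this editing keeps the cell's own double-stranded RNA from being sensed as foreign by MDA5, PKR and related proteins. An siRNA is loaded into an Argonaute protein and guides cleavage of the matching mRNA, and through its seed it can also lower transcripts other than its target. In the study, ADAR1 was silenced to learn what its loss does to gene expression in thyroid cancer cells.

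Levels are given as normalized counts, which are reads on a gene divided by the size factor of the library. Fold changes are on the log2 scale of the deposited values (log2FC, with the standard error of the limma fit after ±). A gene was called changed when its adjusted p was below 0.05 and its log2FC was beyond 0.5 in either direction. Genes with a mean of at least 10 normalized counts over the 6 libraries were tested, which gave 20247 genes. The siADAR1 #2 libraries held 39792163 and 30114840 reads on genes and the siControl libraries 49173897 and 46219651, so the former were the shallower pair, and with 2 libraries for each transfection the number of replicates limits the precision too. Mitochondrially encoded genes took 4.54 to 5.20% of the reads with siADAR1 #2 and 3.46 to 4.46% in siControl. Because these are bulk samples, fewer cells of a type and less RNA per cell cannot be told apart.

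ADAR, the targeted gene (ENSG00000160710, chr1:154581695-154628013 in GRCh38), had 1663 and 2928 normalized counts in the siADAR1 #2 libraries and 10906 and 11701 in the siControl libraries. Every library with siADAR1 #2 lay below every siControl library, which held for all 3234 genes called lower. The mean was 20.3% of that in siControl (log2FC -2.35 ± 0.30, adjusted p = 0.0015). With siADAR1 #1 the counts were 1328 and 2246, and the direct difference of siADAR1 #2 from siADAR1 #1 was 0.35 (95% CI -0.36 to 1.06, adjusted p = 0.41), so a difference in the loss of ADAR between the siRNAs was not detected, while the interval does not show that the losses were alike. ADARB1, the gene of the second catalytically active ADAR enzyme, rose with siADAR1 #2 from 1109 and 735 to 2141 and 1456 (log2FC 0.97 ± 0.25, adjusted p = 0.022). The call for ADARB1 was lost when a library was left out, at log2FC values of 0.67, adjusted p = 0.13 without siControl replicate 2 and 0.69, adjusted p = 0.13 without siADAR1 #2 replicate 1.

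With siADAR1 #2, 3234 genes were lower than in siControl, which is 16% of those tested, and 2339 were higher, which is 11.6%, so 27.5% changed in either direction. The median log2FC over all genes tested was -0.02. Among the falls, 1597 went beyond a log2FC of 1 and 277 beyond 2. Among the rises, 1330 went beyond 1 and 321 beyond 2. The scaling matters for the balance of these counts: after the authors' size factors the siADAR1 #2 libraries still held fewer normalized counts in all than the siControl libraries, and scaling the libraries to equal totals moved the median of all genes by 0.17 on the log2 scale and gave 2311 lower and 3225 higher genes. Without siControl replicate 1 the fit called 3152 genes in all, and without siADAR1 #2 replicate 1 it called 3105.

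**Figure D1:**
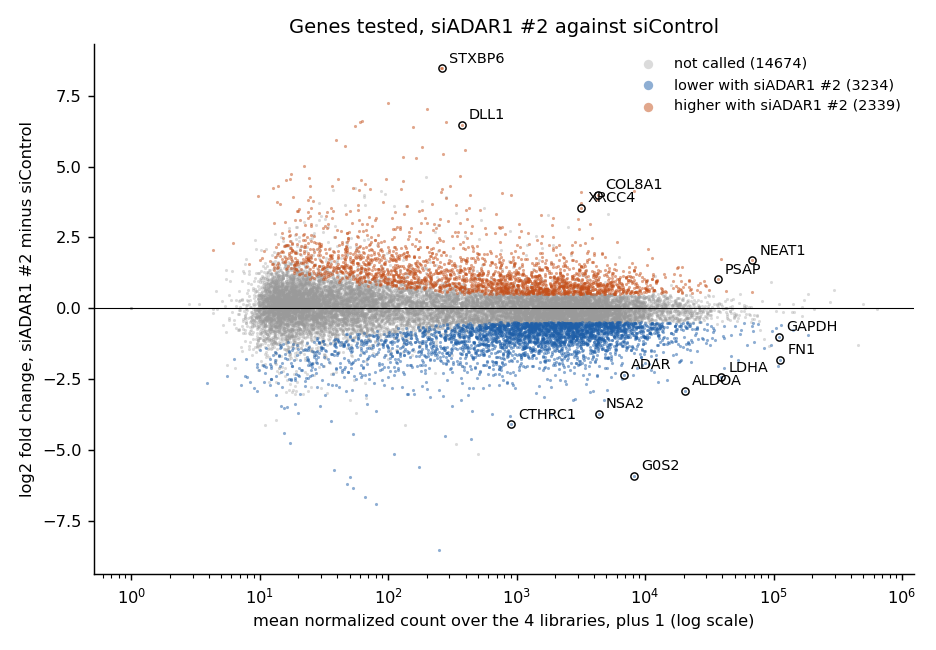
Log2 fold change between siADAR1 #2 and siControl (vertical axis) against the mean normalized count over the 4 libraries plus 1 (horizontal axis, log scale), 1 point for each of the 20247 genes tested. Blue points are the 3234 genes called lower and orange points the 2339 called higher, and the falls sit largely among abundant genes while the rises reach into those near 10 counts.

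Lowered and raised genes differed in kind. Of the lowered genes with an annotation, 91.6% were protein coding and 5.44% long noncoding RNAs. Of the raised ones, 78.2% were protein coding and 16.1% long noncoding, and the shares among all genes tested were 71.0% and 18.4%. The lowered protein-coding genes had a median of 2268 normalized counts in siControl, the raised ones 632, and all tested ones 1153. More abundant genes are tested with more power, and whether this shaped the contrast was not tested.

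Ordered by size, the changes ran through well-known abundant genes. In the first of 4 equal ranks of the falls (log2FC 0.50 to 0.72 in size) the most abundant was FLNA, the actin cross-linker filamin A, at 98693 and 82799 normalized counts against 147300 and 125186 in siControl (log2FC -0.59), with HSPA8 (-0.70), the constitutive HSP70 chaperone, MYH9 (-0.57) and TUBB (-0.52). The next rank held ACTB (-0.94), MT2A (-0.82), PKM (-0.81) and AHNAK (-0.78). In the third were ACTG1 (-1.30), TUBA1B (-1.29), TGM2 (-1.20) and GAPDH (-1.01). GAPDH, which is widely used as a reference gene, stood at 71470 and 74328 with siADAR1 #2 against 159928 and 133918 in siControl and 136051 and 135155 with siADAR1 #1. The last rank, of the largest falls, was led by HMGA1 (-2.04), an architectural chromatin protein, EIF4G2 (-1.84), a translation initiation factor for cap-independent initiation, FN1 (-1.82), fibronectin, and PLAU (-1.41), the urokinase protease. Some of these calls were lost when 1 library was left out, and with quantile normalization those of HSPA8, MT2A, PKM and AHNAK were lost. Without siControl replicate 1 those of FLNA (-0.47, adjusted p = 0.19), MYH9 (-0.39, adjusted p = 0.067), TUBB (-0.50, adjusted p = 0.05) and FN1 (-1.93, adjusted p = 0.084) were lost, without siControl replicate 2 those of FLNA (-0.70, adjusted p = 0.07) and FN1 (-1.71, adjusted p = 0.1), and without siADAR1 #2 replicate 1 those of FLNA (-0.71, adjusted p = 0.076), MYH9 (-0.57, adjusted p = 0.093) and TUBB (-0.49, adjusted p = 0.088).

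The rises were spread in the same way. DYNC1H1, the heavy chain of cytoplasmic dynein, SLC38A1, SLC38A2 and SSR3 led the first rank, with log2FC values of 0.57, 0.57, 0.63 and 0.59, and without siADAR1 #2 replicate 1 the calls of SLC38A1 (0.47, adjusted p = 0.062), SLC38A2 (0.48, adjusted p = 0.22) and SSR3 (0.51, adjusted p = 0.063) were lost. Next came PSAP (1.03), DST (0.96), ETS1 (0.83) and UBR4 (0.79). Without siControl replicate 2 the calls of SLC38A2 (0.45, adjusted p = 0.21), ETS1 (0.69, adjusted p = 0.052) and CCN2 (1.15, adjusted p = 0.091) were lost, and without siADAR1 #2 replicate 1 those of ETS1 (0.71, adjusted p = 0.061) and CCN2 (1.13, adjusted p = 0.08). The third held TIMP2 (1.45), CCN2 (1.45), MET (1.43) and IGF2R (1.16). The receptor tyrosine kinase MET rose from 8477 and 10869.9 to 24364 and 27499.6, and it was also higher with siADAR1 #1 (1.67). Among the largest rises the most abundant were PPME1 (2.10), AHNAK2 (1.77), SPARC (1.72) and NEAT1 (1.71). NEAT1, the noncoding RNA that builds paraspeckles, stood at 100613 and 107334 with siADAR1 #2, above 24758 and 41025 in siControl and 20799 and 19720.2 with siADAR1 #1.

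The lists described next are gene groups written from general knowledge. For each, the number of members called is set beside the 16% lower and 11.6% higher among all genes tested, and no test was made of a list as a whole.

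**Figure D2:**
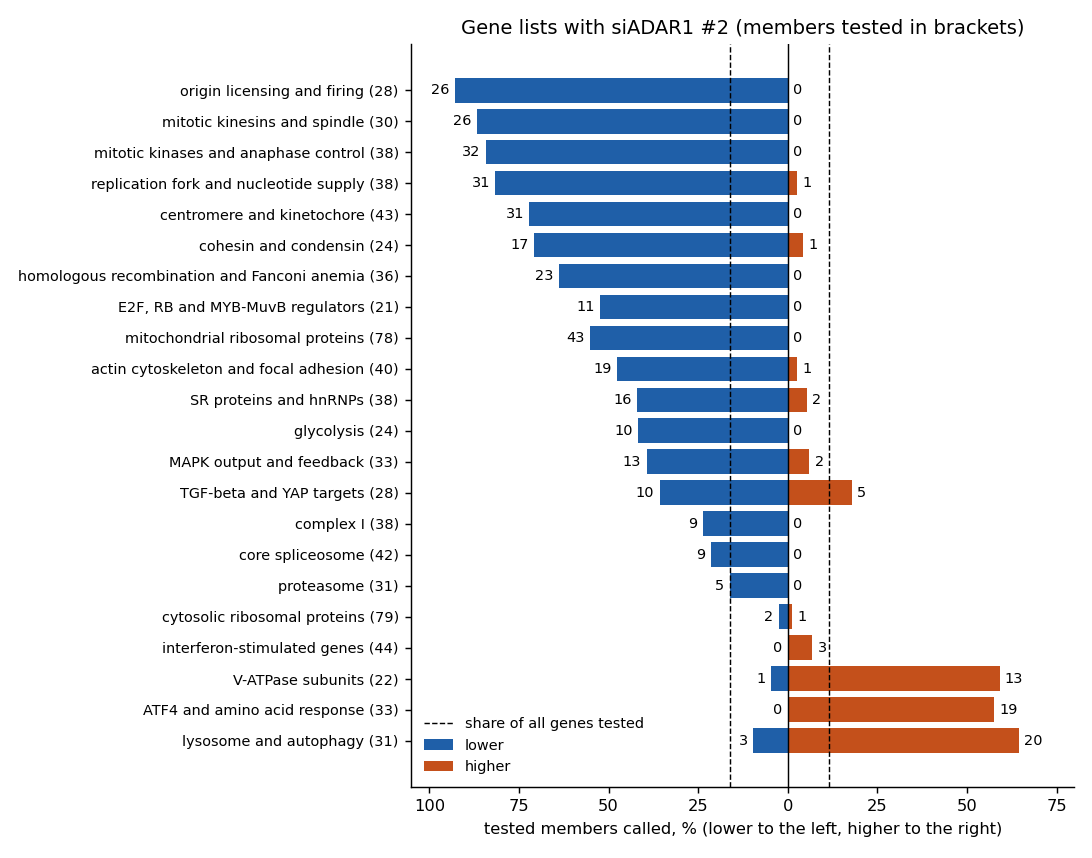
Share of the tested members of 22 gene lists called lower (blue, to the left) or higher (orange, to the right) with siADAR1 #2, in percent, with the number of members called beside each bar and the number tested in brackets. Dashed lines mark the shares of all genes tested, 16% lower and 11.6% higher, and the 8 cell division lists at the top lie far past the first while the lysosome, ATF4 and V-ATPase lists lie past the second.

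Genes of DNA replication and mitosis formed the largest block of falls. Before S phase, ORC, CDC6 and CDT1 load the MCM helicase on origins. In mitosis, kinesins, kinases of the Aurora and Polo families and the kinetochore separate the chromosomes. Over 8 lists of this machinery with 258 tested genes, 197 were lower (76.4%) and 2 higher, with a median log2FC of -0.91. The lists were chosen with this pattern in these samples known, so its direction is a description. With siADAR1 #1 the same genes had a median of -0.40 and 91 were called lower.

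Of the genes for origin licensing and firing, 26 of 28 were lower, with a median of -1.08. CDC6, the licensing factor that brings MCM to the origin, fell from 8375 and 7566 to 2235 and 2527 (log2FC -1.74 ± 0.12, adjusted p = 0.00035). It stood at 5505 and 6001 with siADAR1 #1, above both siADAR1 #2 libraries and below both siControl libraries. The helicase subunits MCM3 (-1.52), MCM4 (-1.26) and MCM7 (-1.25), the initiation factor MCM10 (-1.42) and the kinase CDC7 (-1.12) were lower as well. At the fork, 31 of 38 genes were lower, among them RPA2 (-1.48), a subunit of the single-strand binding protein RPA, CLSPN (-1.20), RFC5 (-1.18) and POLE (-1.08). The exception was POLD4, the small subunit of DNA polymerase delta, which rose from 477 and 466 to 1487 and 1367 (1.59) and stood at 396 and 384 with siADAR1 #1.

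Mitotic genes moved in the same direction. PRC1, which cross-links microtubules in the spindle midzone, was at 3359.9 and 4743 with siADAR1 #2 against 21313 and 17329 in siControl (log2FC -2.27 ± 0.18, adjusted p = 0.00041). With siADAR1 #1 it was at 14483 and 15047, well above siADAR1 #2. Of the 30 spindle genes 26 were lower, with KIF11 (-1.57), the motor that pushes spindle poles apart, HMMR (-1.49) and KIF4A (-1.26). The kinases and anaphase regulators had 32 of 38 lower. MELK, a mitotic kinase, fell to 19.3% of siControl, CCNB1, the cyclin that starts mitosis with CDK1, to 32.9%, and AURKA to 40.1%. Kinetochore genes were lower in 31 of 43 cases, led by SKA3 (-1.74), ZWILCH (-1.67) and CENPO (-1.49). Cohesin and condensin had 17 of 24 lower and 1 higher, with the condensin subunit NCAPH at -1.76, the cohesin subunit SMC1A at -1.45 and TOP2A, which untangles sister chromatids, at -1.06.

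Repair by homologous recombination and the Fanconi pathway had 23 of 36 genes lower, led by BRIP1 (-1.93), RAD54B (-1.53), XRCC2 (-1.40) and UBE2T (-1.38). Among the transcription factors that control these genes, 11 of 21 were lower, among them the activator MYBL2 (24.9% of siControl), the MuvB subunit LIN9 (log2FC -1.23), the repressor E2F7 (-1.60) and the pocket protein RB1 (-1.45). The count was 7 without siControl replicate 1 and 7 without siADAR1 #2 replicate 1. RB1, a brake on the cycle, was at 2339 and 2620.5 against 7346 and 6219.8 in siControl and 6686 and 6359 with siADAR1 #1. In G1, CCND1 (-1.24), CDK6 (-1.65) and SKP2 (-1.18) were lower, and the inhibitor CDKN2D (1.57), CCNG2 (1.36) and CCND3 (0.77) were higher. Canonical histone genes, whose mRNAs mostly lack poly(A) tails, did not follow: 4 of 28 tested members lower and 3 higher (1 lower without siControl replicate 1, 8 lower without siControl replicate 2, 1 higher without siADAR1 #2 replicate 1) with siADAR1 #2, while with siADAR1 #1 11 were higher and 0 lower.

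Promoters of 3 of these genes are shown because they carry the sequence elements known from cell cycle genes, from the RefSeq table of GRCh38.p14, as the 250 bases before the start of the gene, 5′ to 3′ on the strand of the gene. In MCM7, at chr7:100101398-100101647 on the minus strand, capitals mark the 2 matches to the E2F site in its forms TTTGGCGC, TTTCCCGC or TTTCGCGC. In INCENP (chr11:62123761-62124010, plus strand), a subunit of the chromosomal passenger complex with a log2FC of -1.31, and in CKS1B (chr1:154974431-154974680, plus strand), a CDK-binding protein with a log2FC of -1.33, capitals mark a match to the cell cycle homology region, TTTGAA.
MCM7: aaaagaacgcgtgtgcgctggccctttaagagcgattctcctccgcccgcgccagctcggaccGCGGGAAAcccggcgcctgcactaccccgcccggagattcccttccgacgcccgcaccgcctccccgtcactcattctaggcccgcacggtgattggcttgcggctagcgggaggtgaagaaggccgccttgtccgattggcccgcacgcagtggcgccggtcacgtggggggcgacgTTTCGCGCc
INCENP: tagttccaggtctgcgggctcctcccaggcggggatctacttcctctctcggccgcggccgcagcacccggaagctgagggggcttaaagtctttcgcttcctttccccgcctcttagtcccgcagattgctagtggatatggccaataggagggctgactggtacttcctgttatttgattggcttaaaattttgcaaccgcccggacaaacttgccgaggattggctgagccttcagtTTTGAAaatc
CKS1B: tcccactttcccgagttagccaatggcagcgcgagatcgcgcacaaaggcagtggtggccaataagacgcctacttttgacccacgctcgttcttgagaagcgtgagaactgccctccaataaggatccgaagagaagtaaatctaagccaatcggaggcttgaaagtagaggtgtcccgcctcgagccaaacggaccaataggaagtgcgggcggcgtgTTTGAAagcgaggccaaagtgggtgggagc
Both strands of the 300-base windows (250 bases before the start and 50 after it) were searched in the 12625 tested genes that have a window. TTTGAA was found in 51.6% of 31 mitotic kinase and anaphase genes and in 10.1% of all windows. An E2F form was found in 47.8% of 23 licensing genes and in 4.35% of all windows. The letters CCAAT were in 56.2% of the 219 windows of the 8 lists and in 36.1% of all. A match is a description of letters and not evidence that a factor binds there.

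**Figure D3:**
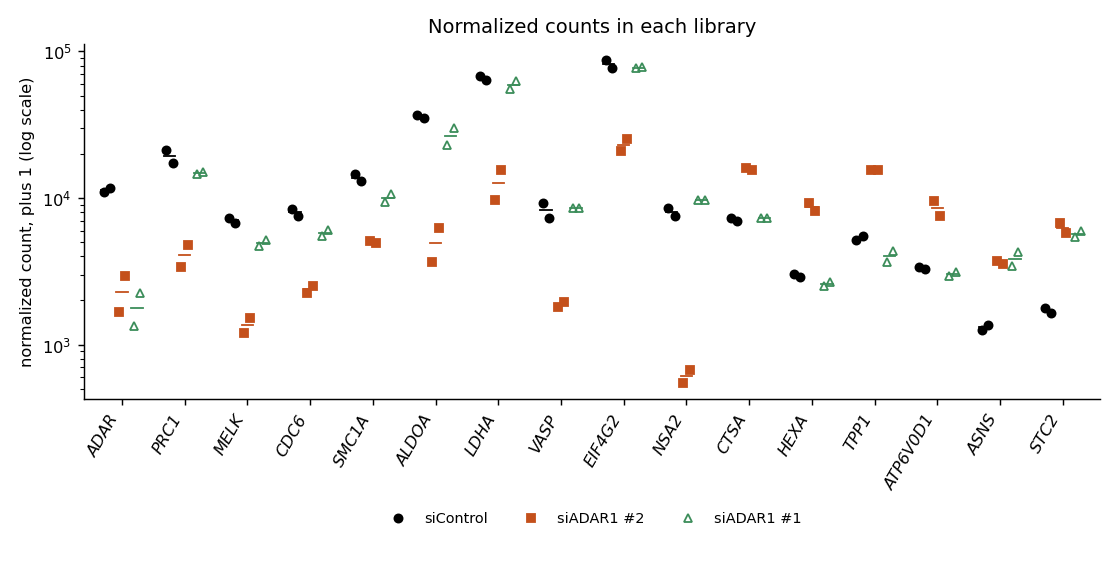
Normalized counts plus 1 (vertical axis, log scale) of 16 genes in each library: filled circles for siControl, squares for siADAR1 #2 and open triangles for siADAR1 #1, with a bar at the mean of each pair. ADAR is low with both siRNAs, ASNS and STC2 are high with both, and from ALDOA to ATP6V0D1 the siADAR1 #2 squares stand apart from the siControl circles while the triangles lie closer to the circles.

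A part of the glycolytic genes fell with siADAR1 #2. Glycolysis turns glucose into pyruvate, and lactate dehydrogenase turns pyruvate into lactate. Of the 24 members, 10 were lower and 0 higher, and 6 of the falls were absent with siADAR1 #1. ALDOA, the aldolase of muscle and most tumor cells, had 3684 and 6203 normalized counts with siADAR1 #2 and 37055 and 35006 in siControl (log2FC -2.91 ± 0.24, adjusted p = 0.00044). LDHA went from 68353 and 63629 to 9634 and 15494 (log2FC -2.43 ± 0.20, adjusted p = 0.00046), with 55700.4 and 63168 under siADAR1 #1. In each of these genes replicate 1 of siADAR1 #2 was the lower of its pair, and the pairs of siControl and siADAR1 #2 were far apart. GPI (-1.07), GAPDH (-1.01), PKM (-0.81) and SLC16A1 (-1.04), the lactate carrier MCT1, were lower too. Hypoxia genes, which include targets in this pathway, were split: 4 of 24 tested members lower and 6 higher (0 lower without siControl replicate 1, 2 lower without siADAR1 #2 replicate 1, 1 lower without siADAR1 #2 replicate 2, 3 higher without siADAR1 #2 replicate 1), with LOX (2.22) and ADM (1.94) up.

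Many nuclear genes of mitochondrial proteins were lower, and those of the mitochondrial genome were not called. In complex I, the first enzyme of the respiratory chain, 9 of 38 genes were lower and none higher, with NDUFA12 (-1.29), NDUFB10 (-1.19) and NDUFB9 (-0.98), and 8 of these falls were absent with siADAR1 #1. A family picked after its values were seen, the proteins of the mitochondrial ribosome, had 43 of 78 lower and none higher, with a median of -0.56 against -0.03 with siADAR1 #1. MRPS18B led it, at 814 and 1015 against 3803 and 3509.7 in siControl and 5104 and 5003 with siADAR1 #1. The count was 26 with libraries scaled to equal totals, 20 without siControl replicate 1 and 24 without siADAR1 #2 replicate 1. All 13 mitochondrially encoded genes were uncalled, with a median of 0.15, and the 79 cytosolic ribosomal protein genes had 2 lower and 1 higher. Of the mitochondrially encoded genes, 3 were called higher with quantile normalization and 1 with libraries scaled to equal totals.

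Single genes of lipid metabolism went both ways, and the list counts given below are to be read against 16% lower and 11.6% higher among all genes tested. SCD, the stearoyl-CoA desaturase, fell from 50508 and 40259 to 16790.3 and 19703 (log2FC -1.31 ± 0.14, adjusted p = 0.00076), and HADHA (-1.49), of fatty acid oxidation, and SREBF2 (-0.99), the sterol-responsive factor, were lower. ABCA1, which exports cholesterol, rose from 1379 and 933 to 6514 and 4876 (log2FC 2.31 ± 0.22, adjusted p = 0.00056), whereas it stood at 433 and 406 with siADAR1 #1, below siControl. STARD4 (1.13), a cholesterol carrier, was higher. The cholesterol list as a whole had 5 of 28 tested members lower and 5 higher (3 lower without siControl replicate 1 or siADAR1 #2 replicate 2, 2 lower with libraries scaled to equal totals, 3 higher without siControl replicate 1 or siADAR1 #2 replicate 1 or siADAR1 #2 replicate 2, 2 higher without siControl replicate 2), and the fatty acid list 4 of 23 tested members lower and 2 higher (2 lower without siControl replicate 1).

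Most lysosomal genes on the list rose. Lysosomes degrade proteins, lipids and glycans with acid hydrolases, and the V-ATPase pumps the protons that keep them acid. Of the 31 genes in the lysosome and autophagy list, 20 were higher and 3 lower, with a median log2FC of 0.71 against -0.01 with siADAR1 #1. In the direct comparison of the siRNAs, 20 of them were higher with siADAR1 #2. HEXA, a subunit of beta-hexosaminidase, went from 3045 and 2886 in siControl to 9237 and 8153 (log2FC 1.55 ± 0.12, adjusted p = 0.00039), and it was at 2491 and 2664 with siADAR1 #1. TPP1, a tripeptidyl peptidase, reached 15424 and 15465 against 5170.4 and 5481 (log2FC 1.54 ± 0.12, adjusted p = 0.00039). The pairs of these genes did not overlap, which held for all 2339 genes called higher. For both HEXA and TPP1 the libraries with siADAR1 #1 lay below those of siControl.

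CTSD (1.22), cathepsin D, CTSA (1.15), protective protein cathepsin A, and PSAP (1.03), the precursor of the saposins, rose as well. IGF2R, the receptor that carries newly made hydrolases to the lysosome, rose from 12846 and 10112 to 28139.9 and 22976 (1.16) and stood at 8479 and 8627 with siADAR1 #1. A pair of families picked after their values were seen went the same way. The genes of V-ATPase subunits had 13 of 22 higher and 1 lower (8 higher without siADAR1 #2 replicate 1), with ATP6V0D1 at 1.35. The VPS genes of vesicle sorting had 12 of 34 higher (7 without siControl replicate 2 and 5 without siADAR1 #2 replicate 1), with VPS28 (1.25), VPS13C (1.19) and VPS18 (1.00).

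Promoters of CTSA (chr20:45891085-45891334, plus strand) and ATP6V0D1 (chr16:67481158-67481407, minus strand) are shown as members that rose with siADAR1 #2 and stayed near siControl with siADAR1 #1. Capitals mark TCACGTGA, the core of the CLEAR element of lysosomal promoters, a motif added after the values were seen.
CTSA: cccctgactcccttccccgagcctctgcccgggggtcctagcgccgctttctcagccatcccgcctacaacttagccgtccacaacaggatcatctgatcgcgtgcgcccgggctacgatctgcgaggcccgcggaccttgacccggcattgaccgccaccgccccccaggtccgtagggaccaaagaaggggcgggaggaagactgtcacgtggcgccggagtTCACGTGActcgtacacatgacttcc
ATP6V0D1: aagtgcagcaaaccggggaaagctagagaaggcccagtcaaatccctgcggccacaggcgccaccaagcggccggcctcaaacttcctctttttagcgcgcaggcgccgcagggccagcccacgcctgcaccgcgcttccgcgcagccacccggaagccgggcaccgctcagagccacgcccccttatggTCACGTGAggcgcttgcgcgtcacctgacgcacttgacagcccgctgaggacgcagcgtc
TCACGTGA was found in 4 of 22 lysosome and autophagy windows (18.2%), in 2 of 14 of V-ATPase genes and in 1.74% of all windows.

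Genes of the ATF4 and amino acid response rose with both siRNAs. ATF4 is translated when eIF2 is phosphorylated, and it switches on genes that make and import amino acids. Of 33 members, 19 were higher and none lower with siADAR1 #2, and 18 were higher with siADAR1 #1, in comparisons that share the siControl libraries. STC2, a secreted glycoprotein, rose from 1769.6 and 1651 to 6747 and 5752 (log2FC 1.86 ± 0.13, adjusted p = 0.00035), and with siADAR1 #1 it was at 5438 and 5982. ASNS, asparagine synthetase, was at 3732 and 3542 with siADAR1 #2, 1262 and 1356 in siControl and 3460.1 and 4265 with siADAR1 #1. SLC7A11 (1.70), the cystine importer, DDIT3 (1.59), the transcription factor CHOP, TRIB3 (1.35) and PPP1R15A (1.30), which directs dephosphorylation of eIF2, were higher. The list of aminoacyl-tRNA synthetases had 3 of 20 tested members lower and 5 higher (1 lower without siControl replicate 1 or siADAR1 #2 replicate 1), with WARS1 (1.44) and GARS1 (1.20).

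The promoter of CHAC1 (chr15:40953221-40953470, plus strand), a glutathione-degrading enzyme of this list, is shown with its match to the C/EBP-ATF response element TGATGCAA, which lies on the other strand, in capitals.
CHAC1: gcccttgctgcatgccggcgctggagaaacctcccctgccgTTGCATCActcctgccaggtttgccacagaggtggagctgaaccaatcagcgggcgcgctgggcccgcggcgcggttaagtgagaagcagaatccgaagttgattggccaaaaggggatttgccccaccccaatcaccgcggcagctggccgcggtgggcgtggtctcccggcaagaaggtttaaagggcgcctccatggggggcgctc
It was 1 of 26 windows of the list with these letters, and 0.523% of all windows held them.

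Genes of the response to unfolded proteins in the endoplasmic reticulum went both ways, with 4 of 30 tested members lower and 4 higher. These counts are read against 16% lower and 11.6% higher among all genes tested. With libraries scaled to equal totals 1 was lower and 7 higher, and the counts also changed in some fits that left a library out. HERPUD1 (1.03) was the clearest rise. Antioxidant genes under NRF2 were split. NQO1 fell from 4576 and 4415 to 1386 and 1362 (log2FC -1.71 ± 0.11, adjusted p = 0.00035), and GCLM (-1.21) and SRXN1 (-1.20) were lower. HMOX1, heme oxygenase, rose from 360.5 and 405 to 1682 and 1460.4 (2.03) and was at 228 and 264 with siADAR1 #1, where it was called lower. Targets of p53 had 2 of 26 tested members lower and 6 higher, and apoptosis effectors 8 of 34 tested members lower and 6 higher (4 lower without siControl replicate 1 or siADAR1 #2 replicate 1 or with libraries scaled to equal totals, 3 higher without siControl replicate 2 or siADAR1 #2 replicate 1, 11 higher with libraries scaled to equal totals). BBC3, the BH3-only protein PUMA, rose from 124 and 119 to 359 and 412 (1.64), while the BH3-only genes BAD (-1.59) and BID (-1.16) and the caspase CASP2 (-1.26) were lower.

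Genes of the actin cytoskeleton and focal adhesions that changed were nearly all lower, with 19 of 40 tested members lower and 1 higher. VASP, which promotes actin filament elongation, went from 9207 and 7267 to 1797 and 1959.9 (log2FC -2.12 ± 0.14, adjusted p = 0.00035) and was at 8520.2 and 8489 with siADAR1 #1, so its fall was absent there. PTK2 (-1.47), the focal adhesion kinase, RHOA (-1.18), TPM4 (-1.05) and PFN1 (-0.98), profilin, were lower. Of 15 tubulin genes 6 were lower, with TUBA1B at -1.29 and TUBB4B at -1.08. Actins and tubulins have near-identical copies, and how the counting treats reads that several of them share can move counts between them.

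Adhesion receptors and matrix genes were rearranged rather than moved one way. Integrins and laminins had 6 of 26 tested members lower and 5 higher (3 lower without siControl replicate 1 or siADAR1 #2 replicate 1). ITGB4, the integrin of hemidesmosomes, rose from 50.1 and 61.2 to 516 and 369 (log2FC 2.92 ± 0.26, adjusted p = 0.00048), and ITGB8 (2.33) and LAMB2 (1.23) were higher. ITGB3, which binds vitronectin and fibrinogen, fell from 5775 and 5221 to 1161 and 1394 (-2.11). LAMA4, a laminin chain, was at 1876 and 1777 with siADAR1 #2, 843 and 669 in siControl and 134 and 167 with siADAR1 #1, so it rose with the former and fell with the latter. Collagens had 6 of 22 tested members lower and 2 higher. Among them COL7A1 (-2.24), COL4A2 (-1.91) and COL1A2 (-1.69) were lower and COL8A1 (4.01) was higher. The protease inhibitor SERPINE2 rose to 13.1 times its siControl mean, from 407 and 494 to 6187 and 5601 (log2FC 3.71 ± 0.16, adjusted p = 0.00015).

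Several receptors of the TGF-beta family were lower, while ACVR1 (log2FC 0.39) and BMPR1B (0.26) were not called. TGFBR1 stood at 719 and 836 with siADAR1 #2, against 3854 and 2505 in siControl and 6398 and 4099 with siADAR1 #1 (24.5% of siControl, adjusted p = 0.0016), and TGFBR2 (log2FC -1.44), BMPR2 (-1.76) and BMPR1A (-1.05) were lower. BMPR2 was also lower with siADAR1 #1 (-0.73). LTBP2, a protein of the extracellular matrix, fell to 11.4% of siControl. ANKRD1 and LATS2, targets of YAP, went the other way, ANKRD1 from 975 and 697 to 20402 and 10495 (log2FC 4.15 ± 0.32, adjusted p = 0.00039). The list of TGF-beta and YAP targets had 10 of 28 tested members lower and 5 higher (5 lower without siControl replicate 1, 2 higher without siControl replicate 2 or siADAR1 #2 replicate 1). ID1 (-2.10), a BMP target, was lower, as it was with siADAR1 #1 (-1.85).

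Output genes of the MAPK pathway had 13 of 33 tested members lower and 2 higher (5 lower without siControl replicate 1 or siADAR1 #2 replicate 1, 6 lower with libraries scaled to equal totals), and 18 were lower with siADAR1 #2 than with siADAR1 #1. FOSL1, a member of AP-1 that ERK signaling stabilizes, had 2642 and 4727 normalized counts against 21271 and 21515 in siControl (log2FC -2.60 ± 0.28, adjusted p = 0.00087). ETV4 (-2.02), FOS (-1.54) and CCND1 (-1.24) were lower, and the phosphatase DUSP4 (1.60) was higher. Of the receptor tyrosine kinases, 4 of 25 were higher, with MST1R, the receptor of macrophage-stimulating protein, rising from 50.1 and 41.8 to 764 and 483 (3.66), and TYRO3 (-1.68) fell. Among guidance genes, SEMA3C (2.33) and PLXNB1 (1.46) rose and PLXND1 (-1.58) and NRP2 (-1.23) fell.

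Among RNA-binding proteins of splicing, falls outnumbered rises. SR proteins and hnRNPs, which choose splice sites, had 16 of 38 tested members lower and 2 higher (10 lower without siControl replicate 1 or siADAR1 #2 replicate 1 or with libraries scaled to equal totals). HNRNPA3 fell from 35177 and 30648 to 11458 and 12304 (log2FC -1.47 ± 0.11, adjusted p = 0.00038), and it was at 28932 and 27898 with siADAR1 #1. HNRNPDL (-1.09), HNRNPAB (-1.05), TRA2B (-1.02) and SRSF9 (-1.01) were lower. The core spliceosome had 9 of 42 tested members lower and 0 higher (4 lower with libraries scaled to equal totals), led by SF3B6 (-1.73), a subunit of the U2 snRNP. The kinases CDK12 and CDK13 and their kind had 1 of 20 tested members lower and 4 higher (2 higher without siControl replicate 2, 1 higher without siADAR1 #2 replicate 1), with CDK8 (-1.37) lower and CCNC (1.24), its cyclin, higher.

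Lists of genes that handle double-stranded and small RNA are read against 16% lower and 11.6% higher among all genes tested. The list of double-stranded RNA sensors, which also holds an adaptor and other RNA-binding proteins, had 4 of 22 tested members lower and 1 higher. It had 2 lower with libraries scaled to equal totals, and 5 higher with the replicate number as a block in the fit. The members called lower were DICER1, MAVS, PRKRA (-0.67) and STAU2 (-0.66). The list of small RNA processing had 4 of 17 tested members lower and 1 higher, with 2 lower after scaling to equal totals. The counts of both lists also changed in some fits that left a library out. The sensor called higher was NLRP1 (log2FC 1.18), which was also higher with siADAR1 #1 (2.40). OAS1 (2.72), DHX58 (2.68) and OAS2 (2.24) were higher but not called, and their siADAR1 #2 replicates lay far apart (134 and 3095 for OAS1). IFIH1 (1.46), which encodes MDA5, RIGI (1.02), TLR3 (0.27), EIF2AK2 (0.15), which encodes PKR, and ZBP1 (-0.03) were not called either. Among single members, DICER1, the nuclease that makes microRNAs, fell from 6555 and 5172 to 1682 and 1462 (log2FC -1.89 ± 0.15, adjusted p = 0.00044) and stood at 4651 and 4135 with siADAR1 #1. MAVS, the adaptor of RIG-I and MDA5 on mitochondria, went from 12243 and 12241 to 5223 and 6079 (-1.12). LIN28B (-1.66), which blocks let-7 maturation, was lower.

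Interferon-stimulated genes are the set that sensing of double-stranded RNA switches on through interferon receptors and STAT proteins. Of the 44 tested, 3 were called higher with siADAR1 #2 and none lower, to be read against 11.6% higher and 16% lower among all genes tested. Their median log2FC was nonetheless 1.57, and with siADAR1 #1 none was called at a median of 0.69. IFIT2 had 1572 and 5408 normalized counts with siADAR1 #2, 203 and 496 in siControl and 497 and 1986 with siADAR1 #1 (log2FC 3.19 ± 0.77, adjusted p = 0.018 for siADAR1 #2). IFIT3 had 1862 and 9102 with siADAR1 #2 and 292 and 724 in siControl (log2FC 3.16 ± 0.91, adjusted p = 0.034), and STAT2 3618 and 7161 and 1492 and 1815 (log2FC 1.63 ± 0.40, adjusted p = 0.019). Replicate 2 was the higher library for 44 of 44 genes with siADAR1 #2, for 40 in siControl and for 44 with siADAR1 #1.

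Within siADAR1 #2 the median ratio of replicate 2 to replicate 1 over these genes was 5.51, and within siControl it was 2.01. Against siControl of the same replicate number, siADAR1 #2 was higher in 33 of 44 genes in replicate 1, with a median ratio of 1.56, and in 44 in replicate 2, with a median ratio of 5.35. The number of interferon-stimulated genes called higher was 0 without replicate 1 of siControl and 1 without its replicate 2. With siADAR1 #2 replicate 1 left out it was 8, and with its replicate 2 left out 0. Leaving out either library of siADAR1 #1, which share in the estimate of the spread, gave 8 and 8. It was 0 with the robust form of the limma fit and 0 without its trend. With the replicate number as a block in the fit, it was 28. Without siControl replicate 1, IFIT2 and STAT2 had log2FC values of 2.55 (adjusted p = 0.14) and 1.49 (adjusted p = 0.13) and IFIT3 lost its call too, and without siADAR1 #2 replicate 2 the values for IFIT2, IFIT3 and STAT2 were 2.30 (adjusted p = 0.087), 2.01 (adjusted p = 0.16) and 1.14 (adjusted p = 0.094). Without siControl replicate 2 the calls of IFIT3 (3.81, adjusted p = 0.079) and STAT2 (1.77, adjusted p = 0.079) were lost.

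**Figure D4:**
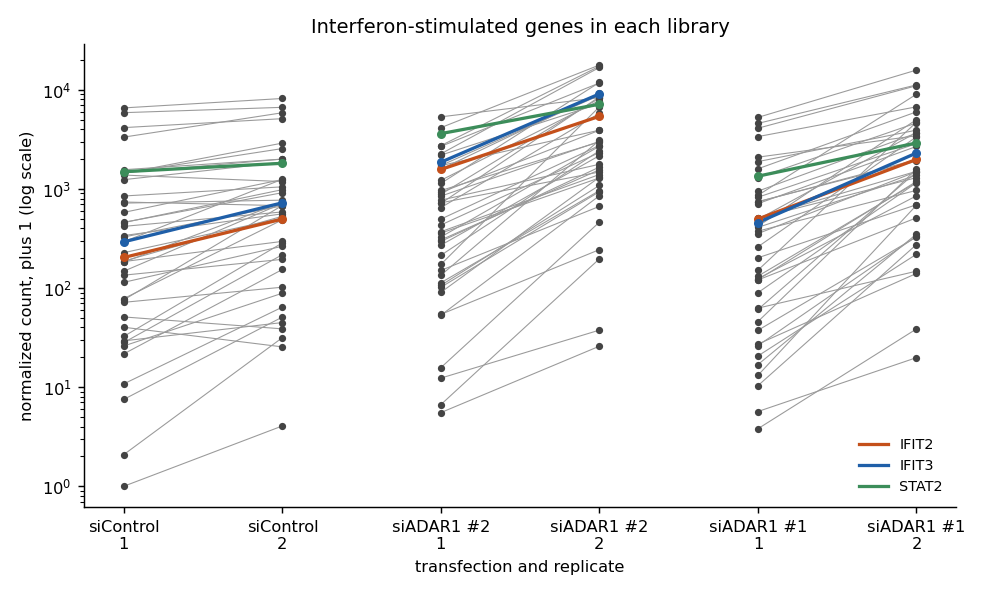
Normalized counts plus 1 (vertical axis, log scale) of the 44 interferon-stimulated genes in each of the 6 libraries, with a line joining the replicates of a transfection for each gene, and IFIT2, IFIT3 and STAT2 in color. The lines climb from replicate 1 to replicate 2 for all 44 genes with each siADAR1 siRNA and for 40 of them in siControl, and IFIT2 is highest in siADAR1 #2 replicate 2.

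The list of cytokines and chemokines had 2 of 20 tested members lower and 2 higher, to be read against 16% lower and 11.6% higher among all genes tested. IL6 rose from 68.6 and 82.6 to 322 and 535 with siADAR1 #2 (log2FC 2.42 ± 0.32, adjusted p = 0.0016) and stood at 58.9 and 86.7 with siADAR1 #1. MHC class I genes had none called in either direction with siADAR1 #2, and the NF-kappaB list had 1 of 22 tested members lower and 2 higher.

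The label of the cells was checked against thyroid lineage genes. NKX2-1, which defines thyroid precursors together with PAX8, and DUOXA2 had no read in any of the 4 libraries, and TG was at 62.4 and 35.2 normalized counts with siADAR1 #2 and at 33.8 and 0 in siControl. PAX8 was abundant, and it fell from 13927 and 15868 to 2542 and 5484 (log2FC -1.99 ± 0.34, adjusted p = 0.0041), with 10272 and 15074 under siADAR1 #1. Among the other tested members, FOXE1 alone was called. TG (2.86), DIO2 (1.66), GLIS3 (1.26), IYD (1.14), DUOX1 (0.74), TSHR (0.47) and DUOX2 (0.42) were higher but not called. HHEX (-0.14) and SLC26A4 (-0.56) were lower but not called. FOXE1 was at -1.21, and its call was lost at -0.85, adjusted p = 0.15 without siControl replicate 1 and -1.43, adjusted p = 0.05 without siADAR1 #2 replicate 1 and -0.99, adjusted p = 0.11 without siADAR1 #2 replicate 2. Epithelial keratins were present, with 3 of 5 tested members lower and 1 higher (1 lower without siControl replicate 1 or siADAR1 #2 replicate 1). KRT19 rose from 2887 and 2952 to 7147 and 6164 (1.18), KRT18 fell to 55.3% of siControl (-0.85), and KRT8 was at 0.18 and not called. KRT7 fell from 87290.1 and 57869 to 38358 and 36763 (-0.92), with 195105 and 104894 under siADAR1 #1, and its call was lost at -0.62, adjusted p = 0.26 without siControl replicate 1 and -1.22, adjusted p = 0.058 without siControl replicate 2 and -0.95, adjusted p = 0.15 without siADAR1 #2 replicate 1 and -0.89, adjusted p = 0.15 without siADAR1 #2 replicate 2. KRT80 fell from 2339 and 1169.9 to 455 and 614 (-1.64), a call lost at -1.14, adjusted p = 0.089 without siControl replicate 1 and -1.43, adjusted p = 0.081 without siADAR1 #2 replicate 1. Of 12 immune markers 4 had no read in the 4 libraries, CD3E and CD3D among them, and PTPRC (CD45) had none with siADAR1 #2 and 3.27 and 3.06 normalized counts in siControl. Their summed level was 863 and 1665 with siADAR1 #2 and 362 and 505 in siControl, most of it CD68, a lysosomal protein found in many cells, which rose from 245 and 417 to 796 and 1566 (its call was lost at 1.41, adjusted p = 0.084 without siControl replicate 1). The summed level of 7 endothelial markers was 170.1 and 125 with siADAR1 #2 and 142 and 111 in siControl, with none of the tested ones called. That of 8 fibroblast and muscle markers was 1684 and 2802 with siADAR1 #2 and 12496 and 10434 in siControl, most of it PDPN, podoplanin, which fell from 12203 and 10204 to 1495 and 2553 (-2.51). The part of such cells in the results was not tested.

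Some developmental transcription factors were lower with each siRNA. HOX genes had 7 of 22 tested members lower and 0 higher (3 lower without siControl replicate 1 or siControl replicate 2, 4 lower without siADAR1 #2 replicate 1) with siADAR1 #2 and 7 lower with siADAR1 #1, 4 of them with both. The most abundant was HOXB7, which fell from 1556 and 1568 to 365 and 499 (log2FC -1.86 ± 0.19, adjusted p = 0.00065). NFIC fell from 4966 and 5185 to 1405 and 1585 (log2FC -1.76 ± 0.12, adjusted p = 0.00035) and was also lower with siADAR1 #1 (-1.18), and TOX2 (-2.83) and NFIA (-2.01) moved with it. NFIX was not called with siADAR1 #2 (-0.23) and was lower with siADAR1 #1 (-1.36). TOX4 was at -0.23 and was not called.

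Metal-binding genes split. MT1X rose from 1369 and 1359.6 to 4953 and 3842 (1.68), and it was also higher with siADAR1 #1 (2.14). The much less abundant MT1F was higher with both siRNAs too (2.19 with siADAR1 #2 and 3.01 with siADAR1 #1). MT2A (-0.82) and the zinc exporter SLC30A1 (-1.28) were lower with siADAR1 #2, whereas MT2A was higher with siADAR1 #1 (1.05). MT1E was at 0.08 and not called with siADAR1 #2, and was higher with siADAR1 #1 (1.48). MT1H, at 2.27 and 4.39 against 9.80 and 15.3, was not called. Metallothionein genes resemble each other closely, which can move reads between them. Proteasome genes had 5 of 31 tested members lower and 0 higher, to be read against 16% lower and 11.6% higher among all genes tested. All of those falls were absent with siADAR1 #1, led by PSMA6 (-1.48), PSMB6 (-1.07) and PSMB5 (-1.04). Ribosome biogenesis had 7 of 36 tested members lower and 0 higher (3 lower without siControl replicate 1 or siADAR1 #2 replicate 1, 2 lower with libraries scaled to equal totals), led by UTP20 (-1.35). Heat shock proteins had 3 of 20 tested members lower and 0 higher, to be read against the same shares, with DNAJB1 (-1.01) the clearest.

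The largest falls among genes of at least 50 normalized counts were in genes of varied function. G0S2, an inhibitor of the triglyceride lipase ATGL (ENSG00000123689, chr1:209675412-209676390), had 108 and 627 normalized counts with siADAR1 #2 against 16024 and 15749 in siControl (log2FC -5.91 ± 0.79, adjusted p = 0.0017), and it was at 3209 and 10472 with siADAR1 #1. Even the higher siADAR1 #2 library was far below both siControl libraries, though the libraries of its own pair differed several-fold. ANO1, a calcium-activated chloride channel, went from 788 and 915 to 23.8 and 42.5 (-4.63), and ALDH1A3, which makes retinoic acid, from 4764 and 5127 to 206 and 554 (-3.86). Others among the 15 largest were LINC01629 (-5.16), RGCC (-4.52), ADGRG1 (-3.75), KCNK3 (-3.72), TMCC3 (-3.63), MBNL3 (-3.46), GYPC (-3.37) and TMEM158 (-3.26), besides CTHRC1 and NSA2, which are given further on. SIRPB1 (-3.80) was also among them and lost its call at -3.92, adjusted p = 0.062 without siControl replicate 1 and -3.69, adjusted p = 0.065 without siControl replicate 2, as did PAEP (-3.63) at -4.09, adjusted p = 0.064 without siControl replicate 1 and -3.17, adjusted p = 0.11 without siControl replicate 2 and -2.62, adjusted p = 0.085 without siADAR1 #2 replicate 1. TMEM158 was low also with siADAR1 #1 (36.5 and 133, against 47.6 and 89.4 with siADAR1 #2 and 525 and 799 in siControl).

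The largest rises were in genes nearly silent in siControl. STXBP6, a SNARE-binding protein (ENSG00000168952, chr14:24809454-25050147), had no read in either siControl library and 772 and 265 normalized counts with siADAR1 #2, a level at least 164-fold higher than the limit that 3 reads per library set. PLCE1-AS1 (767 and 267), SGIP1 (110.0 and 126) and KRTAP4-8 (142 and 105) also had none in siControl. DLL1, a Notch ligand, went from 6.53 and 4.08 to 1049 and 429 (log2FC 6.48 ± 0.46, adjusted p = 0.00035), HKDC1, a hexokinase, from 5.44 and 2.04 to 485 and 621 (6.59), and KRT17, a stress keratin, from 3.27 and 6.12 to 408 and 311 (5.71). ANO2 (7.04), SERPINB7 (5.58), LNCOG (5.45), DEFB103B (5.35) and IGFBP3 (4.52) were also among the 15 largest, as was GOLT1A, which is given further on. DEFB103B has a near-identical copy and KRTAP4-8 close relatives, so which copy the reads came from is uncertain. PLCE1-AS1 is an antisense gene, and whether the counting used strand is not given in the sources used here.

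Changes absent with siADAR1 #1 were sought among the calls. A change was marked absent when siADAR1 #2 also differed from siADAR1 #1 in the same direction by the direct test and the log2FC with siADAR1 #1 lay within 0.5 of 0. By this rule 1570 falls (7.75% of genes tested) and 1071 rises (5.29%) were absent, 13% in all. They made up 48.5% of the falls and 45.8% of the rises. A further 718 falls and 376 rises were called in the same direction with both siRNAs, which share the siControl libraries. Alone, siADAR1 #1 lowered 2225 genes (11%) and raised 1293 (6.39%), 17.4% in all. Directly compared, 3332 genes were lower with siADAR1 #2 than with siADAR1 #1 (16.5%) and 3498 higher (17.3%), which is 33.7% of all tested. The absent changes numbered 1718 without siControl replicate 1 and 1508 without siADAR1 #2 replicate 1, against 2641 with all libraries.

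Several of the strongest falls were of this kind. CTHRC1, a secreted collagen-associated protein, had 77.1 and 120.1 normalized counts with siADAR1 #2, 1934 and 1462 in siControl and 1884 and 1736 with siADAR1 #1 (log2 difference of siADAR1 #2 from siADAR1 #1 -4.20, adjusted p = 0.00015). NSA2, a ribosome biogenesis factor (ENSG00000164346, chr5:74766991-74780113), was at 544 and 669, against 8568 and 7572 and 9613 and 9736, and its difference from siADAR1 #1 had a 95% CI of -4.32 to -3.68. The replicates of NSA2 lay closer together than those of ADAR itself, and its log2FC of -3.73 was larger in size than that of ADAR. PM20D2 went from 5198 and 4652 to 421 and 644 and AMER1, a regulator of Wnt signaling, from 2889 and 2110.3 to 242 and 389.6, while with siADAR1 #1 they were at 5609 and 4825 and 2433 and 2262. The same held for XK (-3.11), RBPMS2 (-3.02), AKR1B1 (-2.95), BATF (-2.90), ANPEP (-2.78), CMTM3 (-2.35), TPRG1L (-2.25) and COL7A1 (-2.24), with log2FC values for siADAR1 #2 in brackets. EIF4G2, at 20883 and 25112 against 87166 and 77620 in siControl and 76516 and 78209 with siADAR1 #1 (log2FC -1.84), was far more abundant than these. The sequences of the siRNAs are not in the files used here, so a match between siADAR1 #2 and these transcripts was not tested.

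Rises absent with siADAR1 #1 included XRCC4, the partner of DNA ligase IV (ENSG00000152422, chr5:83077498-83353787), at 6731 and 4867 with siADAR1 #2 against 475 and 497 in siControl and 329 and 406 with siADAR1 #1 (log2FC 3.55 ± 0.19, adjusted p = 0.00034 for siADAR1 #2). F2R, the thrombin receptor PAR1, rose from 114 and 90.8 to 2072 and 1351, with 145 and 100.5 under siADAR1 #1. GOLT1A reached 891 and 501 from 32.7 and 17.3. LINP1 (4.11), KCNH7 (4.26), MYCT1 (4.21), ZBED2 (4.18), PDE7B-AS1 (3.70) and SRPK3 (3.46) were also among the 12 largest differences from siADAR1 #1, together with RAB17 (4.22), whose siControl libraries differed (33.8 and 2.04) and whose call was lost at 3.99, adjusted p = 0.06 without siADAR1 #2 replicate 1.

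A smaller number of genes was called in opposite directions with the siRNAs: 137 were lower with siADAR1 #2 and higher with siADAR1 #1 (0.677% of those tested), and 191 were higher with siADAR1 #2 and lower with siADAR1 #1 (0.943%). COL8A1, a short-chain collagen, was at 9212 and 6940.1 with siADAR1 #2, 522 and 466 in siControl and 186 and 165 with siADAR1 #1. SCEL, sciellin of the cornified envelope, was at 1548 and 1318, 126 and 55.1 and 16.8 and 23.9 in the same order. In the other direction, IL11, a cytokine of the IL-6 family, fell with siADAR1 #2 to 27.2% of its siControl counts of 82.8 and 114, and was at 659 and 695 with siADAR1 #1. Its fall was not called without siControl replicate 2 (-1.63 (adjusted p = 0.058)). PLAU, the urokinase gene given above, was at 40442 and 51273, 132202 and 110938 and 264478 and 334324, so that the siRNAs lay on either side of siControl.

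**Figure D5:**
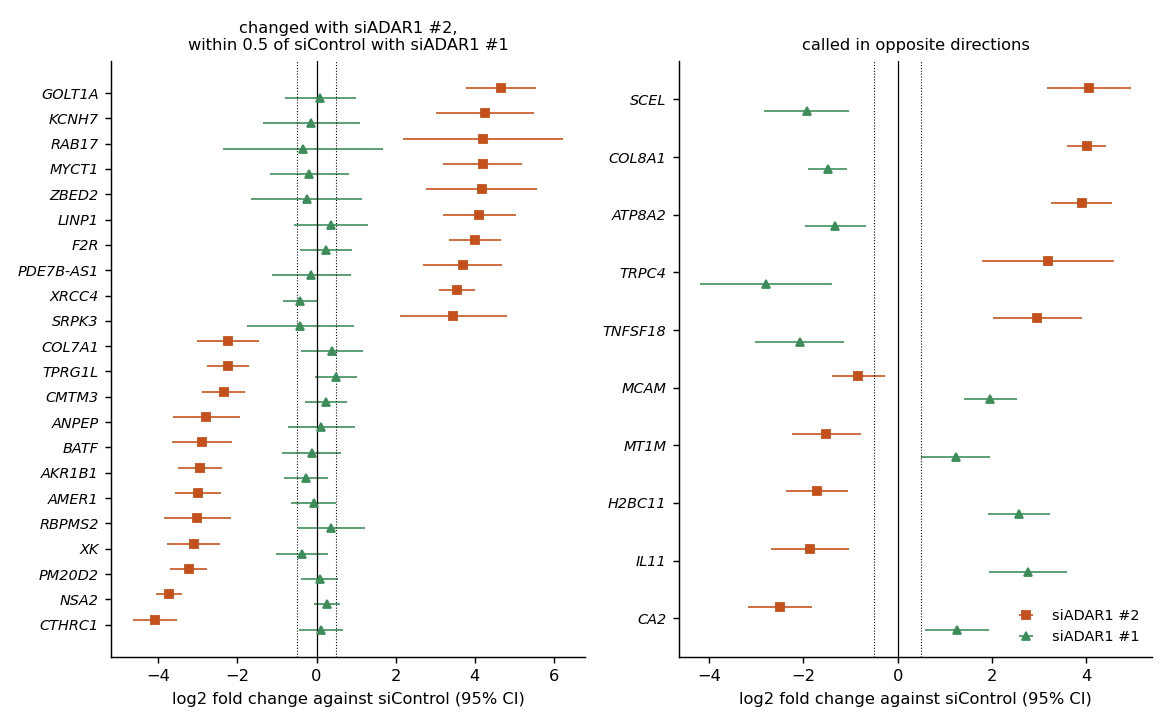
Log2 fold change against siControl (horizontal axis, with 95% confidence intervals) for siADAR1 #2 (orange squares) and siADAR1 #1 (green triangles), for 22 of the largest changes absent with siADAR1 #1 (left) and the 10 largest among genes called in opposite directions (right). Dotted lines mark -0.5 and 0.5. On the left the triangles lie between the dotted lines, by the rule that chose them, and some of their intervals reach past these lines, and on the right the symbols of a gene lie on either side of 0.

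Further lists are to be read against the same shares among all genes tested. Matrix proteases and their inhibitors had 7 of 22 tested members lower and 6 higher (4 lower without siControl replicate 1 or siADAR1 #2 replicate 1), and the list of epithelial and mesenchymal state genes 7 of 26 tested members lower and 3 higher (1 lower without siControl replicate 1, 3 lower without siControl replicate 2 or siADAR1 #2 replicate 1, 4 lower with libraries scaled to equal totals). Semaphorins, plexins and neuropilins had 9 of 26 tested members lower and 4 higher (2 lower without siControl replicate 1, 4 lower without siControl replicate 2, 3 lower without siADAR1 #2 replicate 1, 2 higher without siADAR1 #2 replicate 1). S100A genes, a family picked after its values were seen, had 5 of 13 tested members lower and 0 higher (3 lower without siControl replicate 1 or siADAR1 #2 replicate 1 or siADAR1 #2 replicate 2), and snoRNA host genes 1 of 23 tested members lower and 2 higher.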

How the data were processed

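Gene expression was measured by poly(A)+ RNA sequencing in 6 libraries, 2 for each of siControl, siADAR1 #1 and siADAR1 #2. According to the study's methods, the authors trimmed and checked the reads (Atropos, FastQC) within bcbio-nextgen, counted reads per gene with featureCounts, ran Salmon beside it, and normalized genes with DESeq2, preferring Salmon estimates passed through Tximport. The labels name GRCh38. The methods do not name the transformation behind the deposited log2 values. Here they were read, from the values alone, as variance-stabilized counts divided by 1 size factor per library. The study deposited 58333 genes with these log2 values. No further value column was present. Whether the counting used strand is not given in the sources used here.

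Reads were recovered by inverting the transformation, with the lowest value, 0.348, taken as 0 reads. All recovered values were whole within 0.1 reads, as counted reads are and Salmon estimates need not be, and library totals ran from 30114840 to 50029763. The limit that a count of 0 allows was set at 3 reads, and it covers counting error only.

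The deposited values of genes with a mean of at least 10 normalized counts over the 6 libraries were fitted with limma 3.58.1 in R 4.3.3 (3 groups, empirical Bayes with trend, moderated test, two-sided), with Benjamini-Hochberg adjustment over all 20247 genes. The fit was tested on simulated data. With 2 libraries per group, p-values measure the spread between these libraries. The replicates of a group differed by far more than sampling noise, and each was counted as 1 sample.

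Named genes were ADAR, the 15 largest rises and falls (mean of at least 50), the 4 most abundant changed genes in each of 4 size ranges of rises and of falls (mean of at least 500), at most 6 members of each of 57 lists by adjusted p, every member of lists of 8 or fewer, the 12 largest differences from siADAR1 #1 in each direction among changes absent with it, and the 5 largest in each direction among opposite changes, all with a symbol. Some genes that this rule names are not reported here. PLAU was in addition set side by side for both siRNAs, CD68 and PDPN were named as markers, and the genes at 0 in the closing section were chosen after their values were seen. The lists, their members and the comparison were chosen with earlier results of these data known, and 4 gene families and the CLEAR motif were added after the values were seen. Alternatives were other filters, scalings, forms of the fit, left-out libraries and, chosen after seeing the data, log2 of the count plus 1, voom and equal totals. Promoters are from RefSeq (GRCh38.p14).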

Additional observations from a re-analysis of the deposited data

Results flagged for a closer look

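The 2 siRNAs were compared directly because they were designed against the same gene. At an adjusted p below 0.05 in the limma fit and a difference beyond 0.5, 6830 of 20247 genes differed between siADAR1 #2 and siADAR1 #1.

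Among genes called in opposite directions against siControl, which both comparisons share, the log2 difference of siADAR1 #2 from siADAR1 #1 was tested as well. It was 5.99 for SCEL, 5.98 for the cation channel TRPC4, 5.49 for COL8A1, 5.23 for the phospholipid flippase ATP8A2 and 5.04 for the TNF family ligand TNFSF18, all higher with siADAR1 #2. It was -4.62 for IL11, -4.28 for the histone gene H2BC11, -3.76 for carbonic anhydrase CA2, -2.80 for the adhesion molecule MCAM and -2.74 for the metallothionein MT1M, all lower with siADAR1 #2. TRPC4 had 185 and 105 normalized counts with siADAR1 #2, 13.1 and 13.3 in siControl and 1.87 and 0 with siADAR1 #1, and CA2 had 14.7 and 24.9, 122 and 119 and 311 and 273 in that order. The genes were chosen for these differences, so their sizes are a description. Histone and metallothionein genes have close copies, between which reads can be split.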

How the results depend on the processing

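With 2 libraries for each transfection, the counts depended most on 2 of the libraries. Leaving out 1 library at a time gave 3105 to 5743 changed genes, 1508 to 2539 changes absent with siADAR1 #1, 4674 to 6326 genes differing between the siRNAs, a log2FC of ADAR of -2.76 to -1.95 and 393 to 578 changed list members, and the lowest counts of changed and absent genes came without siADAR1 #2 replicate 1 (3105 and 1508) and without siControl replicate 1 (3152 and 1718). Such a fit has a lone library in 1 group, whose spread is taken from the others. An adjusted p below 0.01 gave 3209 changed genes, 1568 of them absent with siADAR1 #1, and a log2FC beyond 1 gave 2927 and 1170. Scaling to equal totals kept 4649 of the calls, with no gene called in the opposite direction, but the share of calls that were higher went from 42% to 58.3%. No called named gene's fold change turned to the opposite direction under the alternatives run, and of 370 called named genes 277 kept their call in all 17 of them, while 83 lost it with 1 library left out and 38 without the trend. Replicate numbers are shared by the groups, but with 2 pairs they do not establish a pairing: deviations of same-numbered libraries correlated at 0.130 (siControl and siADAR1 #2), 0.111 (siControl and siADAR1 #1) and 0.150 (both siADAR1 siRNAs) across genes. With the replicate block, 6065 genes were changed, 2782 were absent with siADAR1 #1, 7256 differed between the siRNAs, ADAR had a log2FC of -2.35 and 621 list members changed. Depth limits genes near 10 normalized counts.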

Other observations

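Of the called genes, 10 had no read in either siADAR1 #2 library and 15 had none in either siControl library. Several of the former are pseudogenes, read-through or unnamed models, such as GNRHR2P1, IKBKGP1 and BLOC1S5-TXNDC5, which share sequence with other genes, so that reads can be assigned to one or the other. The limit that 3 reads set was 3.90 normalized counts on average in the siADAR1 #2 libraries and 3.16 in siControl.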
